A study of Mus musculus with 14 samples.

Results

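Histone deacetylases remove acetyl groups from the lysines of histones and other proteins. The members described here are the 11 zinc-dependent deacetylase genes of the mouse, *Hdac1* to *Hdac11*, which are read by 18 of the 41174 gene probes of the array. They were chosen by name, as every probe whose gene name in the array design is Hdac followed by a number, with *Hdac7a* taken as the older name of *Hdac7*. The 18 probes belong to 11 of the 19512 genes that could be named on the array. No measured level was used in choosing them.

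Gene expression was measured in 14 blastocyst samples at E4.0, each on its own 1-color Agilent whole mouse genome array. The 8 SCNT-derived embryos were female and had cumulus cells, follicle cells shed with the egg at ovulation, as donors. Of these, 4 were reconstructed by cell fusion (fusion clones), where donor cell and enucleated oocyte are merged, and 4 by injection (injection clones), where the donor nucleus alone enters the oocyte. The controls were 3 male and 3 female embryos from in vitro fertilization (IVF). The labels give no strain, allele or genotype. According to the methods of the study, recipient oocytes and IVF embryos were BDF1, a cross of C57BL/6N and DBA/2, and nuclear donor cells came from BDF1 mice heterozygous for an *Xist* knockout, which the methods do not restate for these blastocysts. The design text calls the controls matched in sex and genotype. All embryos were cultured in KSOM medium. The reconstructed oocytes were activated with strontium chloride and held in cytochalasin B, and no deacetylase inhibitor is named in the labels or the methods. The extraction protocol speaks of RNA from single embryos, and its wording was written for dissected embryos of a later stage, so whether each sample was 1 blastocyst is not settled. P-values measure the spread between these samples.

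The family is divided by sequence into classes. Class I (*Hdac1*, *Hdac2*, *Hdac3* and *Hdac8*) is mostly nuclear, and *Hdac1*, *Hdac2* and *Hdac3* act as the catalytic subunits of corepressor complexes that bring them to chromatin. Class IIa (*Hdac4*, *Hdac5*, *Hdac7* and *Hdac9*) moves between nucleus and cytoplasm and binds MEF2 transcription factors, and 14-3-3 proteins hold its phosphorylated members in the cytoplasm. Class IIb (*Hdac6* and *Hdac10*) is mostly cytoplasmic, and *Hdac11* is the sole member of class IV. *Hdac1* is needed for mouse development and for the growth of embryonic stem cells. Inhibitors such as trichostatin A, given to reconstructed oocytes, raise the success of mouse cloning, which is the reason to ask at what levels clones and IVF embryos hold these transcripts.

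The deacetylases fell into well-measured and barely measured genes. The 7 genes *Hdac1*, *Hdac2*, *Hdac3*, *Hdac4*, *Hdac5*, *Hdac6* and *Hdac10* were well above background on all 14 arrays by their brightest probe, which stands for a gene with more than 1 probe. *Hdac7* was well above background on 13 arrays and *Hdac8* on 10. *Hdac9* was well above background on 1 array only, a female IVF embryo, although it has 4 probes. *Hdac11* had 1 spot well above background, on fusion clone 2, which the scanner software marked as an outlier and which was set to missing, so *Hdac11* has no measured level here. The values below are log2 intensities after quantile normalization, with a lower limit (floor) of 16 intensity units, or 4 on the log2 scale. The brightness of a probe depends on its sequence, and so a value is compared only with the same probe in another group.

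**Figure D1:**
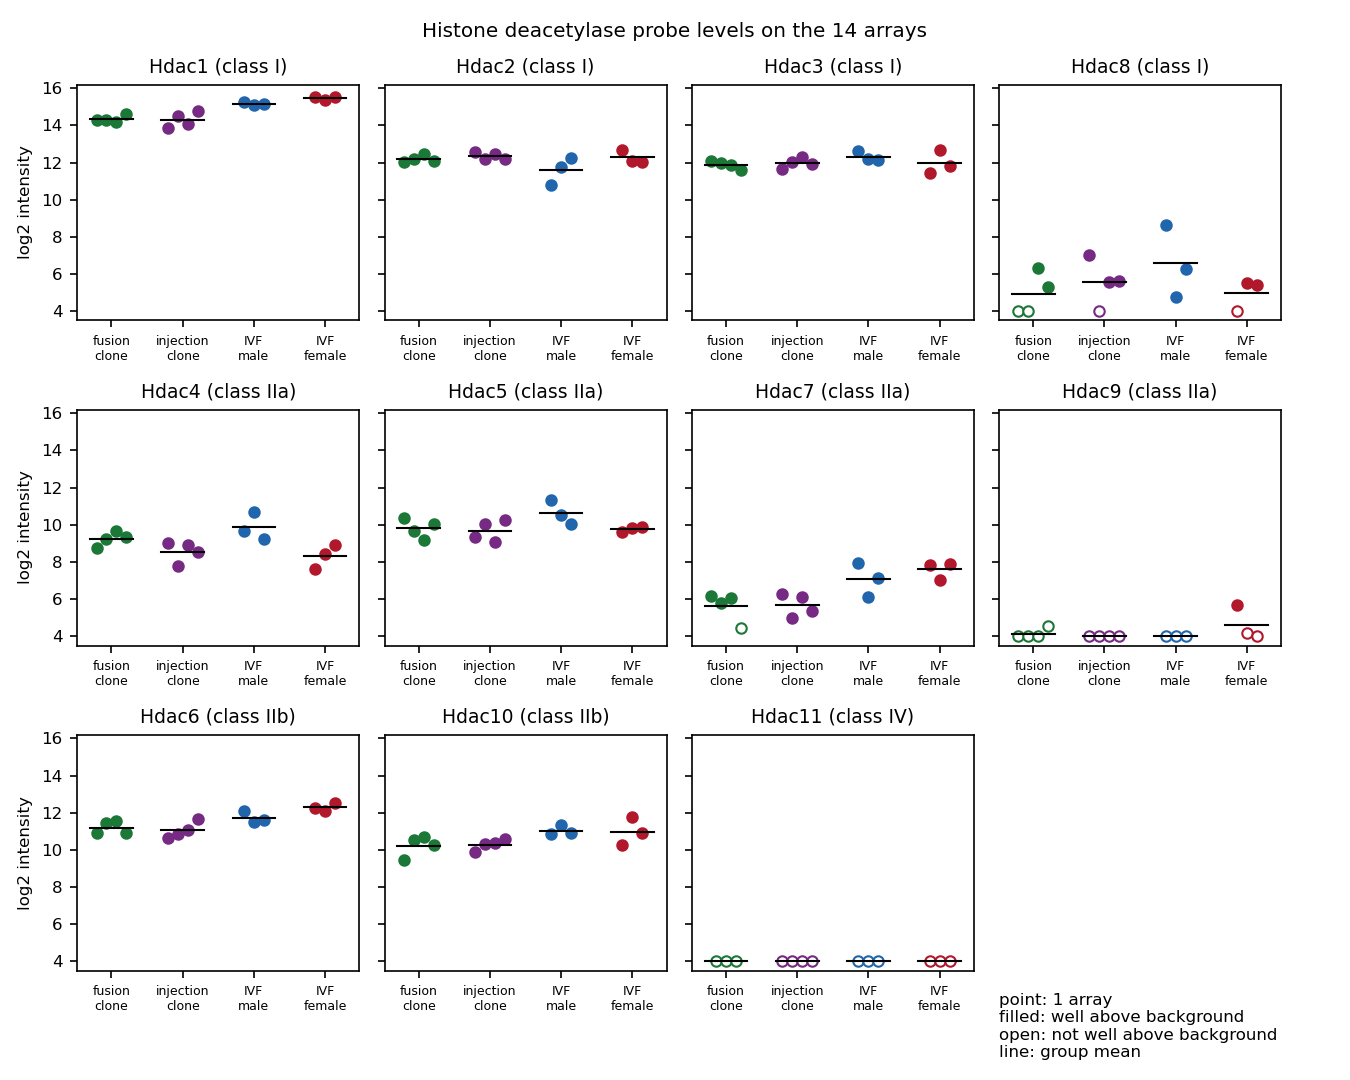
Levels of the 11 deacetylase genes (brightest probe of each) on the 14 arrays, as log2 intensity after quantile normalization. Each point is 1 array, open points were not well above background, and the line is the group mean. In *Hdac1* all 8 clones lie between 13.87 and 14.75, below the 6 IVF embryos, whereas the groups overlap in *Hdac2* and *Hdac3*. The share of all probes with such a split was not counted.

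Some facts of the arrays bear on every comparison. Between 57.4% and 65.2% of spots were well above background per array, and arrays of a group correlated at 0.943 to 0.972. The 4 groups lay on 4 slides, 1 group to a slide, and the clones were scanned on another scanner and with another version of the software than the IVF embryos, so that slide, scanner and group cannot be told apart. The deposited signal of the clones had 0 spots below 0, and that of each IVF array had 6790 to 9981, so that the signal differs in kind near background, where *Hdac7*, *Hdac8* and *Hdac9* lie. With normexp correction of the spot and local background signals, done the same way on all arrays, the differences of *Hdac7* between clones and female embryos were -1.09 and -1.11 in place of -1.99 and -1.91. Each comparison of clones with female embryos uses the same 3 female controls. The labelled tissue was borne out by its markers, since all 6 epiblast and all 8 trophectoderm markers on the array were well above background on every array. In a whole embryo, fewer cells of a type and less RNA per cell cannot be told apart.

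The first question was whether clones differ from sex-matched IVF embryos in these genes. In fusion clones *Hdac1* and *Hdac6* fell by about 2-fold against female IVF embryos, and *Hdac7* was lower without passing the test. In injection clones the same 3 genes were lower by similar amounts, and none of them passed. *Hdac2*, *Hdac3* and *Hdac5* differed by at most 0.11 on the log2 scale in either kind of clone. Of 32458 probes tested between fusion clones and female embryos, 9.49% passed limma's test at a Benjamini-Hochberg adjusted p of 0.05, in either direction, and 5.17% passed and were lower. Between injection clones and female embryos the shares were 3.67% and 2.14% of 32840 probes. Among the deacetylases, 2 of the 11 genes tested passed in fusion clones, both lower, and 0 of 10 in injection clones. An unadjusted p below 0.05 was found for 4 genes in fusion clones and for 3 in injection clones, against 27.2% and 23.2% of all probes. The tested genes include *Hdac9*, seen on 1 female embryo, and in fusion clones *Hdac11*, left at the floor by its missing spot. With so few genes the count is not set apart from the background.

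*Hdac1*, a class I enzyme of the Sin3, NuRD and CoREST corepressor complexes, was well above background on all arrays. Its levels in the fusion clones were 14.30, 14.31, 14.20 and 14.63, and in the injection clones 13.87, 14.51, 14.07 and 14.75. The female IVF embryos had 15.54, 15.35 and 15.55 and the male IVF embryos 15.26, 15.08 and 15.17. Every clone was thus below every IVF embryo of either sex. Against female embryos alone, 15.4% of all probes in fusion clones and 12.5% in injection clones were lower without overlap. The share of probes that part all clones from all IVF embryos was not counted. This split is also that of scanner and software version. In fusion clones *Hdac1* fell by 1.12 ± 0.17 (SE of the log2 difference, n = 4 and 3) against female embryos, a 2.17-fold lower level with an adjusted p of 0.0165 in limma. In injection clones the difference was -1.18 ± 0.24, 2.27-fold lower, with an adjusted p of 0.0562. The call in fusion clones was lost by a small margin without fusion clone 1, 2 or 3, with adjusted p of 0.0508, 0.0540 and 0.0531, and the difference then ran from -1.10 to -1.07. The probe, matched to the *Hdac1* transcript, lies at chr4:128960910-128960981 in the coordinates of the IVF files, whose headers do not name the build.

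The other class I genes showed no such shift. *Hdac2*, the close relative of *Hdac1* in the same complexes, had 12.02, 12.21, 12.43 and 12.10 in fusion clones, 12.58, 12.17, 12.46 and 12.19 in injection clones, and 12.70, 12.07 and 12.05 in female embryos. The groups overlapped throughout. The differences from female embryos were -0.08 (95% confidence interval -0.62 to 0.46) in fusion clones and 0.08 (-0.46 to 0.61) in injection clones. Its second probe, matched to another transcript record, was well above background on 4 arrays, all clones, and at the floor in all 6 IVF embryos. The highest value, 8.23, was in injection clone 1, and the others lay near background, where the signal of clones and IVF embryos differs in kind. The differences of this probe from female embryos, 0.51 and 1.47, did not pass (adjusted p = 0.314 and 0.473 in limma). *Hdac3*, the catalytic subunit of the NCoR/SMRT complexes, had 12.08, 11.99, 11.85 and 11.59 in fusion clones, 11.67, 12.05, 12.32 and 11.94 in injection clones, and 11.45, 12.69 and 11.82 in female embryos. The male embryos had 12.62, 12.20 and 12.12. The groups overlapped, and fusion and injection clones lay within the span of the female embryos. The differences of *Hdac3* were -0.11 (-0.88 to 0.66) and 0.01 (-0.79 to 0.81). These intervals leave room for changes of less than 2-fold in either direction.

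*Hdac8*, an X-linked class I enzyme that deacetylates the cohesin subunit SMC3, was near the detection limit. Its brightest probe was well above background in 2 of 4 fusion clones, 3 of 4 injection clones, 2 of 3 female and 3 of 3 male embryos, with values from the floor to 8.66. The highest of these was in male embryo 1. Its other probe was well above background on 4 arrays. The intervals of its differences were wide, -1.75 to 1.59 in fusion and -1.27 to 2.42 in injection clones, and no direction can be given.

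Of the 2 class IIb genes, *Hdac6* passed in fusion clones and *Hdac10* in neither kind. *Hdac6*, an X-linked gene, encodes the main deacetylase of alpha-tubulin and also acts on cortactin and HSP90. The fusion clones had 10.91, 11.44, 11.54 and 10.91, the injection clones 10.63, 10.84, 11.07 and 11.67, and the female embryos 12.26, 12.08 and 12.54. No clone reached the lowest female embryo. The male embryos, with 12.09, 11.50 and 11.60, lay between and overlapped the clones. In fusion clones *Hdac6* fell by 1.09 ± 0.24 (2.14-fold lower, adjusted p = 0.0409), and in injection clones the difference was -1.24 ± 0.28 (2.36-fold lower, adjusted p = 0.0662). The call in fusion clones was lost when any 1 of the 7 arrays was left out, with adjusted p between 0.0592 (without female embryo 2) and 0.10 (without female embryo 3), while the difference stayed between -1.21 and -0.97. In injection clones it passed without injection clone 4 (-1.45, adjusted p = 0.0413). With male and female IVF embryos together as the control, the difference in fusion clones was -0.81 (adjusted p = 0.0635). The probe lies at chrX:6363458-6363517 in the coordinates of the same files.

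Because *Hdac6* is X-linked and the clones are female, the X chromosome gives the background for it. The median log2 difference over the X-linked probes tested was -0.21 in fusion clones and -0.19 in injection clones, against -0.13 and -0.08 over autosomal probes. Male against female embryos, the X-linked median was -0.28 and the autosomal one -0.04. Single X-linked probes ran from -7.93 to 6.88 in fusion clones and from -7.05 to 5.25 in injection clones. The differences of *Hdac6*, -1.09 and -1.24, lay within these ranges. In fusion clones 58 of 928 X-linked and 1350 of 26096 autosomal probes passed as lower. In injection clones 33 of 941 and 552 of 26404 did. What part the X chromosome has in the differences of *Hdac6* was not tested.

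*Hdac10*, which deacetylates polyamines, has a pair of probes on the same transcript. By the brighter, the fusion clones had 9.43, 10.53, 10.68 and 10.28, the injection clones 9.87, 10.32, 10.36 and 10.57, and the female embryos 10.24, 11.78 and 10.92. The male embryos had 10.87, 11.33 and 10.89, above all clones. The clones overlapped the female embryos through female embryo 1, and the differences were -0.74 ± 0.46 and -0.70 ± 0.38 (adjusted p = 0.355 and 0.340). The dimmer probe had 8.08, 8.84, 9.25 and 8.58 in fusion clones, 8.25, 8.68, 8.67 and 9.07 in injection clones, and 9.37, 10.42 and 9.55 in female embryos. Here no clone reached a female embryo, and the differences were -1.09 ± 0.37 and -1.11 ± 0.32 (adjusted p = 0.121 and 0.108). Both probes thus pointed the same way and neither passed.

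Class IIa was mixed. *Hdac7*, best known from blood vessels and thymocytes, was measured by 1 of its 2 probes, the other being at the floor on every array. It had 6.18, 5.77, 6.04 and 4.44 in fusion clones, of which the last was not well above background, 6.28, 5.00, 6.13 and 5.35 in injection clones, and 7.84, 7.04 and 7.91 in female embryos. Every clone was below every female embryo. The male embryos, with 7.94, 6.13 and 7.14, overlapped the injection clones and, through male embryo 2, the fusion clones. *Hdac7* had the largest difference of the family, -1.99 ± 0.48 in fusion clones (3.97-fold lower, adjusted p = 0.0518) and -1.91 ± 0.40 in injection clones (3.75-fold lower, adjusted p = 0.0587), which missed the threshold by little. Without fusion clone 4 the difference in fusion clones was -1.60 and passed (adjusted p = 0.0486). With normexp background correction, which lifts dim values, the differences shrank to -1.09 and -1.11 and passed (adjusted p = 0.0284 and 0.0398). The probe lies at chr15:97793586-97793645.

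*Hdac4*, which represses MEF2 targets in muscle, bone and brain, was the one class IIa gene on the higher side. Its levels were 8.77, 9.23, 9.64 and 9.36 in fusion clones, 9.02, 7.80, 8.89 and 8.51 in injection clones, and 7.62, 8.44 and 8.89 in female embryos. The fusion clones lay mostly above the female embryos and overlapped them through fusion clone 1. The difference was 0.93 ± 0.36 in fusion clones (adjusted p = 0.156) and 0.24 ± 0.42 in injection clones (adjusted p = 0.743). *Hdac5*, its relative with similar partners, had 10.39, 9.65, 9.19 and 10.06, then 9.36, 10.07, 9.06 and 10.26, against 9.60, 9.85 and 9.90 in female embryos. The clones scattered on both sides of the female embryos, and the differences were 0.04 (-0.70 to 0.78) and -0.09 (-0.89 to 0.70). *Hdac9* was well above background only on female embryo 1, at 5.67, and no fold is given for it.

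**Figure D2:**
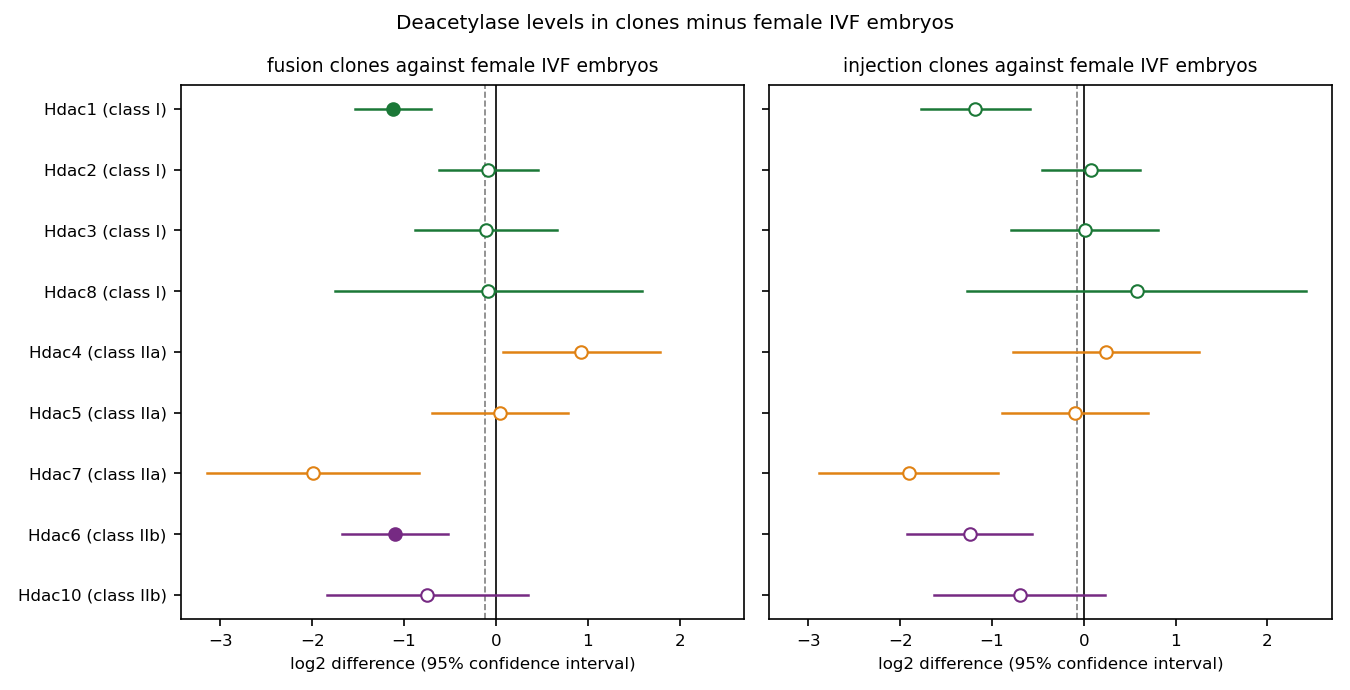
Log2 difference of the 9 deacetylase genes with a measured level in fusion clones (left) and injection clones (right) minus female IVF embryos, with 95% confidence intervals from limma. Filled points passed an adjusted p of 0.05, and the dashed line is the median of all probes tested, -0.12 and -0.08. *Hdac1*, *Hdac6* and *Hdac7* lie below -1 in both panels, and *Hdac2*, *Hdac3* and *Hdac5* lie close to 0.

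By class, the median log2 difference from female embryos was -0.10 over the 4 class I genes in fusion clones and 0.04 in injection clones, beside -0.12 and -0.08 over all probes tested. Over the 5 class II genes with a measured level, without *Hdac9*, the median was the value of *Hdac10*, -0.74 and -0.70. Each class held genes that were lower and genes near 0. In class I it was *Hdac1* and not *Hdac2* or *Hdac3*, and in class II *Hdac6* and *Hdac7* and not *Hdac5*. In 3 of the 11 genes the fusion clones did not overlap the female embryos, all of them lower, and the same held for 3 of 10 genes in injection clones. Over all probes tested, 15.4% did not overlap and were lower in fusion clones, and 12.5% in injection clones.

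The 2 kinds of clone were also pooled, a setting added after the data were seen. With all 8 clones against the 3 female embryos, 17.6% of 34093 probes passed and 10.4% were lower, and *Hdac1* (-1.15 ± 0.18, adjusted p = 0.00313), *Hdac6* (-1.17 ± 0.23, adjusted p = 0.00841) and *Hdac7* (-1.95 ± 0.40, adjusted p = 0.00982) passed. The dimmer *Hdac10* probe passed too (-1.10 ± 0.28, adjusted p = 0.0250), and the brighter one did not (-0.72 ± 0.33, adjusted p = 0.174). *Hdac2* and *Hdac3* were at -0.0030 and -0.05. This fit uses the same arrays as the separate fits and adds no sample.

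The promoters of *Hdac6* and *Hdac7*, which were lower in the clones, are shown beside those of *Hdac2* and *Hdac5*, which were near 0, so that their letters can be set side by side. The sequences are from RefSeq on GRCm38.p6 and give the 250 bases before the annotated start of transcription. For *Hdac7*, which has 4 annotated starts, the one listed first is printed. Windows of 8 of the 11 genes were printed or counted, and *Hdac1*, *Hdac3* and *Hdac10* are named only. Capitals mark the GC box GGGCGG, a letter pattern bound by Sp1-like factors, on either strand, where it reads CCGCCC on the other.
Hdac6, chrX:7947890-7948139, minus strand: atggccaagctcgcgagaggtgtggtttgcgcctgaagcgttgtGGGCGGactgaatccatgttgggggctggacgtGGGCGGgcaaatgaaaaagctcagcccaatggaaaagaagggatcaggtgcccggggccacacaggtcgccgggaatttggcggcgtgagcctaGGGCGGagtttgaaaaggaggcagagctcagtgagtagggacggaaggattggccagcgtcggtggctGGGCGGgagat
Hdac7, chr15:97831496-97831745, minus strand: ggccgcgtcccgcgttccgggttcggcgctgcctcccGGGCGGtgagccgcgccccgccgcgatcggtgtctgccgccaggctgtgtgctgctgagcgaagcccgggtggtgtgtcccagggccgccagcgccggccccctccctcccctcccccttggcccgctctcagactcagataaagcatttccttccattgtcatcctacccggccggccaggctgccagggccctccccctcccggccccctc
Hdac2, chr10:36974294-36974543, plus strand: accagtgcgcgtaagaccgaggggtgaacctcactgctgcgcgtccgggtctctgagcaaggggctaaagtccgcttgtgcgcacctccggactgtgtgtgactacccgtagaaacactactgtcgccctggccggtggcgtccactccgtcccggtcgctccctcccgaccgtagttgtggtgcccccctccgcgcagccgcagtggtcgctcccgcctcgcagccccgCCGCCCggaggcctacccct
Hdac5, chr11:102230173-102230422, minus strand: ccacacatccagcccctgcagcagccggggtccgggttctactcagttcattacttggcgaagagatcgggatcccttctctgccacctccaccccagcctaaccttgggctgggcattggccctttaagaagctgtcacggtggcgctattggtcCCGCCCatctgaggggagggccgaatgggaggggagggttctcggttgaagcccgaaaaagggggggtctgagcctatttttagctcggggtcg

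The windows of *Hdac6* and *Hdac4* held 4 GC boxes each, and those of *Hdac7*, *Hdac2*, *Hdac5* and *Hdac11* held 1 each. Of 32851 windows of the same length in the genome table, 32.7% held at least 1. The other 3 *Hdac7* windows held none. The CCAAT box, CCAAT or ATTGG, was found 2 times in the windows of *Hdac4*, *Hdac5*, *Hdac6* and *Hdac8* and not in those of *Hdac2* and *Hdac7*, and 33.8% of all windows held it. The TATA box, TATAAA or TTTATA, was found in the window of *Hdac8*, in 1 of 2 windows of *Hdac9* and in 12.4% of all windows. The windows of *Hdac2*, *Hdac4*, *Hdac5*, *Hdac6* and *Hdac11* held 27, 23, 12, 17 and 17 CpG dinucleotides. The 4 *Hdac7* windows held 25, 6, 21 and 5, that of *Hdac8* 6 and those of *Hdac9* 0 and 2. The median over all windows was 6.

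The second question was whether the method of nuclear transfer matters for these genes. Of 32303 probes tested between fusion and injection clones 0% passed in limma (1993, or 6.17%, had an unadjusted p below 0.05), and 0 of the 10 deacetylase genes tested passed or had an unadjusted p below 0.05. The largest difference was that of *Hdac4*, 0.69 ± 0.31 higher in fusion clones (adjusted p = 0.814). *Hdac1* differed by 0.06 (-0.45 to 0.57), *Hdac6* by 0.15 (-0.49 to 0.78) and *Hdac7* by -0.08 (-1.19 to 1.03). Over all probes 3.31% did not overlap between the kinds of clone, and no deacetylase gene was among them.

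The third comparison set male against female IVF embryos, since *Hdac6* and *Hdac8* are X-linked. Of 32046 probes, 0.0593% (19 probes) passed, and 0 did when same-numbered embryos were blocked as pairs. Of the 10 deacetylase genes tested 0 passed, and 1, *Hdac4*, had an unadjusted p below 0.05, against 7.76% of all probes. *Hdac4* was at 9.64, 10.67 and 9.25 in male embryos, each above the highest female embryo, a difference of 1.54 ± 0.51 (adjusted p = 0.579). *Hdac5*, at 11.31, 10.55 and 10.03, also lay above all female embryos, by 0.85 ± 0.38 (adjusted p = 0.649). *Hdac1* lay below all of them, by -0.31 ± 0.21 (adjusted p = 0.722). Over all probes 12.8% did not overlap between the sexes, and among the deacetylases it was these 3 genes. The difference of X-linked *Hdac6* was -0.57 ± 0.27 (adjusted p = 0.652), with 1 male embryo inside the female range. *Hdac2* had a male embryo at 10.79, below the other 13 arrays, beside male embryos at 11.77 and 12.23.

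**Figure D3:**
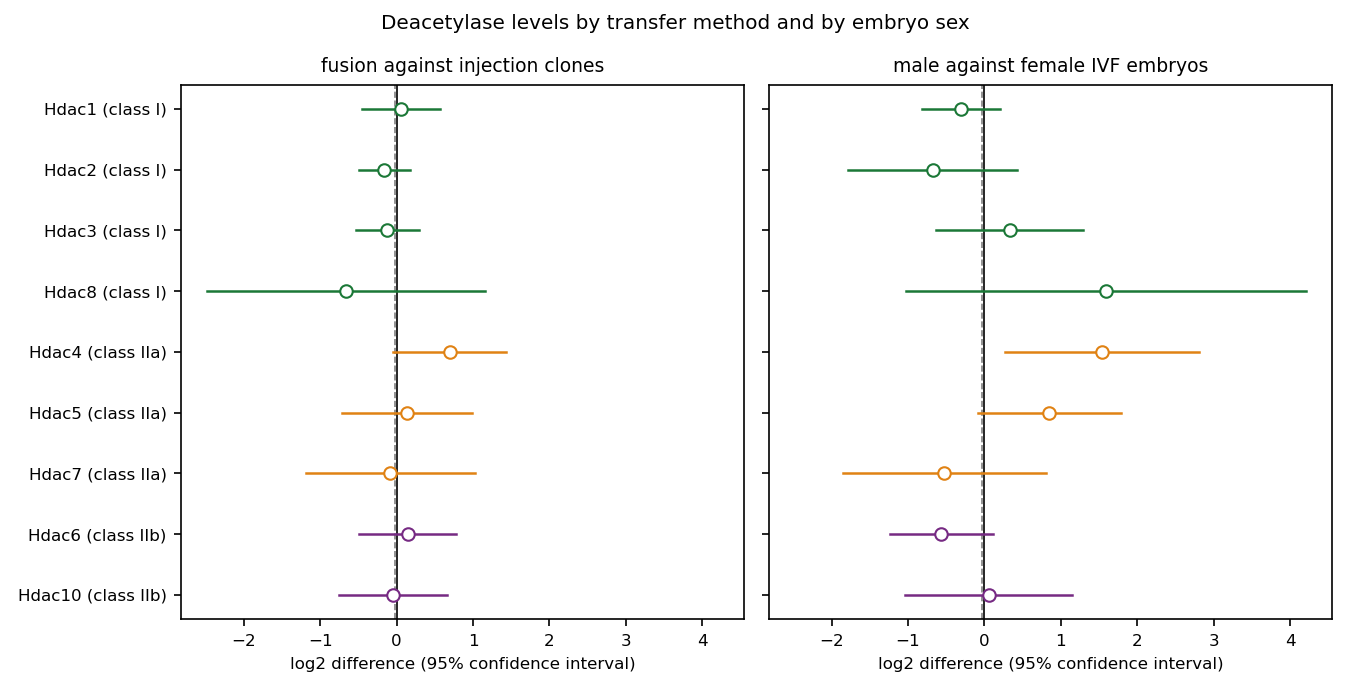
Log2 difference of the 9 deacetylase genes with a measured level in fusion minus injection clones (left) and in male minus female IVF embryos (right), with 95% confidence intervals from limma. The dashed line is the median of all probes tested. All points are open, so none passed, and *Hdac4* has the largest difference on the left, 0.69, and an interval above 0 on the right.

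The order of the group means shows the same split. For *Hdac1* it ran from female (15.48 ± 0.11, SD) and male embryos (15.17 ± 0.09) to fusion (14.36 ± 0.18) and injection clones (14.30 ± 0.40), and neither neighbouring pair of the same origin passed the tests above. The male embryos were nevertheless all below the female ones, and with same-numbered embryos blocked the difference was -0.31 ± 0.24 (adjusted p = 0.690 in limma). For *Hdac6* the order was the same, at 12.29 ± 0.23, 11.73 ± 0.32, 11.20 ± 0.34 and 11.05 ± 0.45. For *Hdac7* it was 7.60 ± 0.48 in female and 7.07 ± 0.90 in male embryos, then 5.69 ± 0.62 in injection and 5.61 ± 0.80 in fusion clones. *Hdac4* had another order, with male embryos (9.85 ± 0.73) and fusion clones (9.25 ± 0.36) above injection clones (8.56 ± 0.55) and female embryos (8.32 ± 0.64).

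The corepressor complexes that carry the class I enzymes were looked at next, by lists chosen with earlier results of these data known. None of the 12 genes of the Sin3 complex or the 10 of the NuRD complex passed in either kind of clone, while 2 and 2 had an unadjusted p below 0.05 in fusion clones and 3 and 2 in injection clones. The medians of their differences were 0.13 and -0.31 in fusion clones and 0.13 and -0.41 in injection clones. The histone-binding subunits *Rbbp4* and *Rbbp7*, shared by both complexes, differed by -0.12 and 0.08 in fusion clones and did not pass. Over all probes, 9.49% passed and 27.2% had an unadjusted p below 0.05 in fusion clones, and 3.67% and 23.2% in injection clones. In the CoREST complex, 2 of 8 genes passed in fusion clones, in opposite directions. *Hmg20b*, a DNA-bending subunit, rose by 3.88 ± 0.56 (adjusted p = 0.0142), and *Zmym3*, an X-linked zinc finger subunit, fell by 1.39 ± 0.31 (adjusted p = 0.0410). In injection clones they were at 2.84 and -1.05 and did not pass. In the NCoR/SMRT complex, which carries *Hdac3*, 1 of 5 genes passed in fusion clones, the subunit *Gps2*, which fell by 1.73 ± 0.22 (adjusted p = 0.0105).

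The sirtuins are the NAD-dependent deacetylases, unrelated in sequence to the Hdac genes. Of the 7, *Sirt4*, a mitochondrial enzyme, passed in both kinds of clone, with -1.10 ± 0.25 in fusion clones (adjusted p = 0.0429) and -1.02 ± 0.17 in injection clones (adjusted p = 0.0415). The other 6 passed in neither, so that 1 of 7 passed in each, against 9.49% and 3.67% of all probes. The median differences of the 7 were -0.46 and -0.43. *Sirt2*, which like *Hdac6* deacetylates alpha-tubulin, differed by -0.65 and -0.55 and did not pass.

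Genes with the opposite or a downstream role gave single calls. Of 12 histone acetyltransferases, *Kat2a*, the catalytic subunit of SAGA, fell by 0.97 ± 0.18 in fusion clones (adjusted p = 0.0260) and was at -1.03 in injection clones without passing. Of 7 bromodomain genes, which read acetylated lysines, *Brdt*, known from male germ cells, passed as higher in fusion clones (adjusted p = 0.0216), where all 4 arrays measured it at a mean of 7.08, but only 1 of 3 female arrays had it well above background and their mean was at 4.09, near the floor, so no exact size is given. *Brd8* fell by 0.85 ± 0.19 in fusion clones (adjusted p = 0.0444). Of the 10 class IIa partners, MEF2 factors and 14-3-3 proteins, the 14-3-3 gene *Ywhab* rose by 1.09 ± 0.20 (adjusted p = 0.0274). Of the 7 substrates outside histones, the *Hdac6* substrate cortactin (*Cttn*) rose by 1.19 ± 0.26 (adjusted p = 0.0401) and the *Hdac8* substrate *Smc3* fell by 0.89 ± 0.20 (adjusted p = 0.0414). In injection clones none of these lists had a gene that passed, and between 1 and 3 genes of each had an unadjusted p below 0.05. Over all probes, 9.49% passed in fusion clones and 3.67% in injection clones, where 23.2% had an unadjusted p below 0.05.

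**Figure D4:**
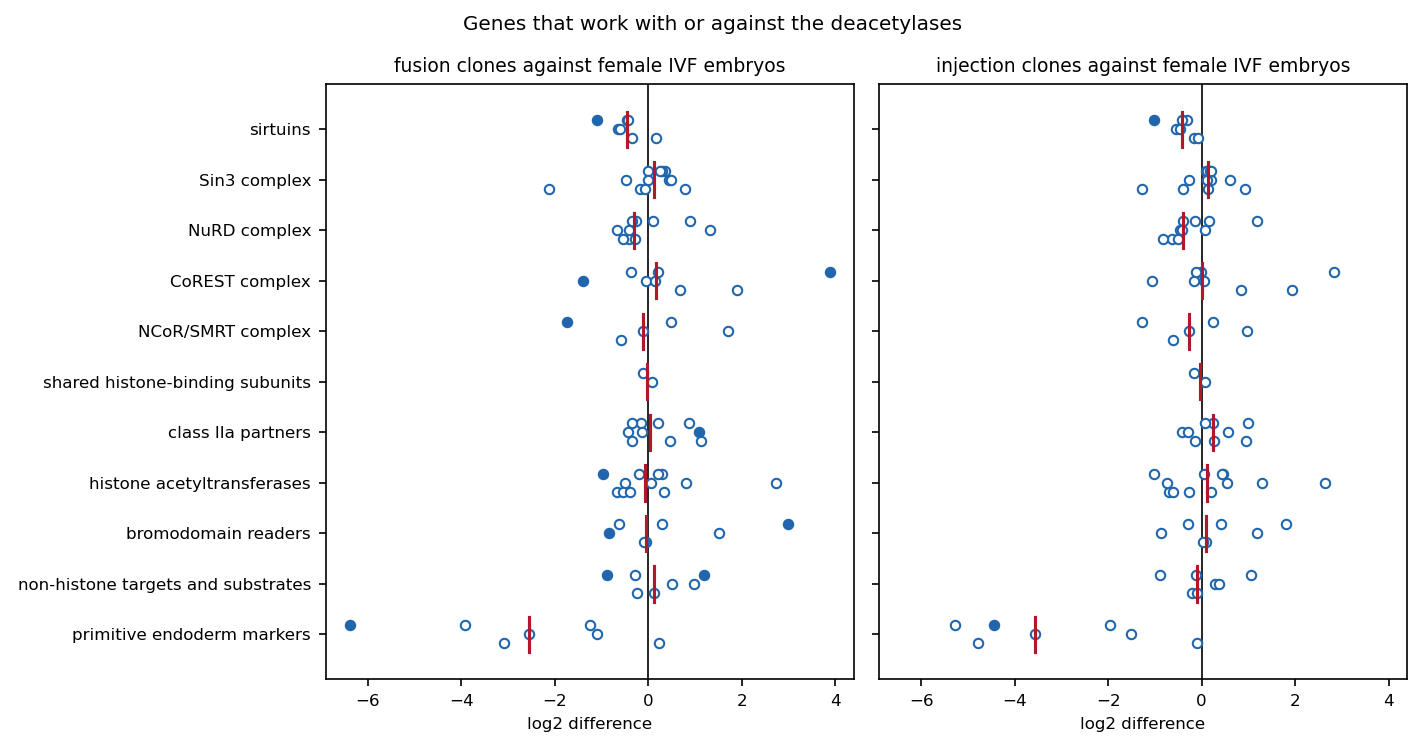
Log2 difference of each tested gene of the lists in fusion clones (left) and injection clones (right) minus female IVF embryos. Points are genes (brightest probe), filled points passed an adjusted p of 0.05, and the red line is the median of a list. The medians of the complexes lie within 0.5 of 0, and that of the primitive endoderm markers lies at -2.54 and -3.57.

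Markers of the other lineages of the blastocyst are given beside these results. The 7 primitive endoderm markers had a median difference of -2.54 in fusion clones and -3.57 in injection clones, and 1 passed in each, *Sox7* (-6.39 ± 1.01, adjusted p = 0.0180, well above background in 3 of 4 fusion clones) and *Lama1* (-4.43 ± 0.79, adjusted p = 0.0444). Over all probes 9.49% passed in fusion clones and 3.67% in injection clones. Of the 7 markers, 2 in fusion and 4 in injection clones had an unadjusted p below 0.05 in limma, against 27.2% and 23.2% of all probes. These markers lay below all female embryos, as did 15.4% and 12.5% of all probes. The summed marker intensity ran from 80833 to 174276 in fusion clones, 64937 to 142625 in injection clones and 121958 to 171548 in female embryos. Between 4 and 7 of the 7 were well above background per array. *Gata6*, the brightest of them and so the one that weighs most in this sum, was at 0.23 and -0.10. The 8 trophectoderm markers had median differences of -0.19 and -0.32. None of these 8 passed in injection clones, where 3.67% of all probes did. In fusion clones *Elf5* fell by 2.96 ± 0.44 (adjusted p = 0.0160 in limma) and no other passed, against 9.49% of all probes. There *Krt7*, *Krt18*, *Cdx2* and *Krt8* were at -2.20, -0.47, -0.36 and -0.02, and *Eomes*, *Gata3* and *Tfap2c* at 0.48, 0.31 and 0.01. The markers summed to 709538 to 933628 in fusion clones, 638245 to 880872 in injection clones and 887659 to 1041735 in female embryos. *Krt8* and *Krt18*, the brightest, weigh most in this sum. The part of either lineage in the deacetylase differences was not tested. Of the 11 cumulus cell markers, 3 to 5 were well above background per clone, with summed intensities of 225 to 1101, against 324 to 871 in female embryos.

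The patterns most like those of *Hdac1* and *Hdac6* over the 14 arrays were looked up among 10694 genes well above background on all of them. For *Hdac1* these were *Slc4a1ap* (Pearson's r = 0.967), *Ccdc66* (0.953) and *Akr1a1* (0.945). For *Hdac6* they were *Rin1* (0.934), *Add1* (0.925) and again *Ccdc66* (0.923). The arrays share their groups and slides, and with the group means removed the correlations were 0.842, 0.713 and 0.873 for *Hdac1* and 0.858, 0.746 and 0.756 for *Hdac6*.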

How the data were processed

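Gene expression of 14 blastocyst samples was measured on 1-color arrays after 2 rounds of linear amplification. The intensities were made by the authors with Agilent Feature Extraction, for which the submitters' notes name version 10.5.1, and the processed signal, deposited as background-subtracted intensity, was used. The deposited log2 values, whose scaling is not stated, served as an alternative. Intensities were quantile-normalized first, and only then set to a floor of 16 and taken to log2. Outlier spots were left out, and spots of a probe were averaged. Gene symbols were matched through RefSeq for 32737 of 41174 probes (79.5%). A probe entered a test if any array of the groups compared had it well above background, and was tested with limma 3.58.1 (R 4.3.3), which fits a moderated linear model to each probe, and p-values were adjusted over all probes tested by Benjamini-Hochberg. Samples were grouped by the labels, and each comparison held only its own groups. The number of arrays limits the precision. In simulated data, 200 of 31850 probes were changed between fusion clones and female embryos. A 4-fold change was recovered in 31.5% of the changed probes and a 2-fold change in 0%. Far more probes passed in the data, so the adjusted threshold was stricter in the simulation.

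The brightest probe over all arrays stands for a gene. The text names every deacetylase gene and, from the other lists, genes that passed the test. The members and lists were chosen with earlier results of these data known, although the members were taken by name and not by level. No comparison was blocked on the replicate number in its main test. The deviations of same-numbered male and female arrays correlated at 0.108, 0.128 and 0.109, each over 0.1, so the test with these numbers as a block is given beside that comparison. The clones showed no such correlation in every pair, and the labels do not say what a number marks. Alternatives were other scalings, floors, filters, fits and controls, and leaving out each array. Probe coordinates are those of the files, and promoters are from RefSeq on GRCm38.p6.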

Additional observations from a re-analysis of the deposited data

Results flagged for a closer look

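Of 19 groups of 4 clones tested for a value far from the others, 1 stood out, and about 5% of groups do so by chance. It was *Hdac9* in fusion clone 4, at 4.52 on the log2 scale, where the other 3 fusion clones were at the floor of 4. With those tied at the floor, any value above it stands out by this rule, so the rate by chance does not apply to it. The probe was not well above background on this array.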

How the results depend on the processing

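The lower levels of *Hdac1*, *Hdac6* and *Hdac7* kept their direction in both kinds of clone under every setting run, and their calls did not. Each group has its own slide, so slide could not be fitted as a fixed block. As a random block, in the fit of both clone groups, the estimated correlation within a slide was -0.10. A negative correlation makes the SE smaller and so the counts larger. All female embryos lie on the same slide, so this block cannot part slide from group and its counts add no support. For 2-fold changes the simulated recovery was 0% in clones against female embryos and between the sexes, and 2.5% between the kinds of clone. For 4-fold changes it was 47.5% between the kinds of clone and 0% between the sexes. A gene that did not pass may thus still differ. The simulation changed 200 probes, far fewer than passed between fusion clones and female embryos, so its threshold was stricter there than in the data. In the data *Hdac1* and *Hdac6* passed in fusion clones at 2.17-fold and 2.14-fold. A level near the floor limits *Hdac7* and *Hdac8*. The deposited values move the median of all probes from -0.12 to 0.05 in fusion and from -0.08 to 0.07 in injection clones.

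Between fusion clones and female embryos 3079 probes passed, against 5533 with the methods' threshold (unadjusted p of 0.05 and 2-fold), 1917 with probes averaged per gene, 6000 with both clone groups together, 8608 with slide as a random block in that fit, and 1123 to 2815 with 1 array left out. Of the deacetylase genes 2 passed, against 1 with the deposited log2 values, a floor of 1 or no filter, and 0 to 2 with 1 array left out. Between injection clones and female embryos 1205 probes passed, against 629 with the deposited values, 599 with a floor of 1, 774 with no filter, 1932 with probes well above background on all arrays of a group, 3097 with all 4 groups in one fit, 4602 with the methods' threshold, 2701 with male and female controls, 6000 and 8608 with both clone groups, and 160 to 1039 with 1 array left out. Of the deacetylase genes 0 passed, against 1 with normexp or a variance trend, 2 with probes well above background on all arrays of a group or male and female controls, 3 with all 4 groups, the methods' threshold or both clone groups, and 0 to 1 with 1 array left out. Between fusion and injection clones 0 probes passed, against 2 with the deposited values, 11 with a floor of 1, 1 with all 4 groups, 769 with the methods' threshold, and 0 to 2 with 1 array left out. Between male and female embryos 19 probes passed, against 7 with normexp, 151 with the deposited values, 100 with a floor of 1, 34 with no filter, 58 with probes well above background on all arrays of a group, 205 with all 4 groups, 3 with a variance trend, 1854 with the methods' threshold, and 1 to 15 with 1 array left out. Of the deacetylase genes 0 passed, against 1 with the methods' threshold. The cause of these moves was not tested.

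With the replicate number as a block, 0 probes and 0 deacetylase genes passed between fusion clones and female embryos, 0 probes between injection clones and female embryos, and 0 probes between the sexes. Same-numbered arrays of clones and female embryos correlated at -0.06 to 0.06, so the clones share only a number with the controls. In that fit *Hdac1* was at -1.21 and *Hdac6* at -1.0 in fusion clones (adjusted p = 0.133 and 0.168 in limma), and *Hdac5* turned to -0.039.

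The differences whose sign turned passed no test. The largest of them in the main test were those of *Hdac8* (0.58) and *Hdac4* (0.24) in injection clones. In fusion clones against female embryos, *Hdac8* was at 0.17 with 75th percentile scaling, 0.084 with a floor of 32 and 0.25 with both clone groups, *Hdac5* at -0.13 with normexp, -0.38 with male and female controls and -0.027 with both clone groups, and *Hdac2* at 0.21 with averaged probes and 0.26 with male and female controls. In injection clones *Hdac3* was at -0.025 with 75th percentile scaling, -0.014 with normexp, -0.15 with male and female controls and -0.049 with both clone groups, *Hdac2* at -0.13 with normexp and -0.0030 with both clone groups, *Hdac4* at -0.53 with male and female controls, and *Hdac8* at -0.070 with averaged probes and -0.22 with male and female controls. Between the kinds of clone *Hdac7* was at 0.024 with normexp, 0.00044 with the deposited values and 0.059 with a floor of 32. Between the sexes *Hdac10* was at -0.25 with averaged probes. With 1 array left out, fusion clones gave -0.15 to 0.25 for *Hdac5*, -0.57 to 0.22 for *Hdac8*, -0.19 to 0.13 for *Hdac2* and -0.38 to 0.24 for *Hdac3*, and injection clones -0.29 to 0.11 for *Hdac5*, -0.26 to 0.36 for *Hdac3*, -0.11 to 0.52 for *Hdac4* and -0.033 to 0.29 for *Hdac2*. Between the kinds of clone the ranges were -0.071 to 0.35 for *Hdac5*, -0.20 to 0.22 for *Hdac10*, -0.083 to 0.21 for *Hdac1* and -0.31 to 0.31 for *Hdac7*, and between the sexes -0.32 to 0.45 for *Hdac10*.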

Other observations

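The epiblast and oocyte markers gave no call. The 6 epiblast markers on the array had a median log2 difference from female embryos of -0.13 in fusion and -0.11 in injection clones, with summed intensities of 40985 to 64516, 39235 to 69084 and 39505 to 74713 in fusion clones, injection clones and female embryos. None passed in limma, and 1 had an unadjusted p below 0.05 in each kind of clone. The 6 oocyte markers had medians of 0.10 and 0.38, and none passed, while 1 and 2 had an unadjusted p below 0.05. The median differences of the cumulus cell markers, of which 7 of 11 were tested, were -0.61 and -0.60, and none passed, while 1 and 2 had an unadjusted p below 0.05. Over all probes, 9.49% passed and 27.2% had an unadjusted p below 0.05 in fusion clones, and 3.67% and 23.2% in injection clones.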
